A study of Homo sapiens with 6 samples.

Results

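The 10 genes described here are mesenchymal markers and regulators of the epithelial to mesenchymal transition (EMT): Vim, Fn1, Cdh2, Zeb1, Snai1, Snai2, Twist1, Sparc, Col1a1 and Col1a2. They were chosen by mouse Ensembl gene identifier (ID), matched to the row names of the deposited table of estimated counts, and all 10 were found among its 34866 rows. The gene symbols came with the list of IDs, since the table itself holds no symbols and no mouse annotation was used here. RNA was sequenced from samples labelled MKN45, a human gastric cancer line described in the study's design as negative for the gland mucin MUC6. In 3 samples the cells had received an adenovirus with a short hairpin RNA (shRNA) against Golph3, and in 3 an adenovirus with a control shRNA, so both groups carry a viral vector. These are called GOLPH3 shRNA and control shRNA. The labels do not give the hairpin sequences, their number, or the time of harvest. The comparison asks how expression changed with the hairpin against GOLPH3, a Golgi protein that binds phosphatidylinositol 4-phosphate.

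In EMT, epithelial cells loosen their junctions and take on the shape, motility and matrix production of mesenchymal cells. SNAI1, SNAI2, ZEB1 and TWIST1 are transcription factors that drive it, in large part by repressing E-cadherin and other epithelial genes. Vimentin, N-cadherin (CDH2), fibronectin (FN1), osteonectin (SPARC) and the chains of type I collagen (COL1A1 and COL1A2) are products used to mark the mesenchymal state. In the stomach, fibroblasts make most of the type I collagen and SPARC, and in gastric carcinoma these regulators are studied in tumour cells for their part in invasion.

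The GOLPH3 shRNA libraries held 4977645 to 5676169 estimated counts and the control shRNA libraries 6287037 to 7355140. Reads were counted against mouse gene models (the processing notes name the build mm10) although the labels give human cells. From the table, human reads assigned to mouse gene models cannot be told apart from mouse cells that were labelled as human. A level is therefore given only as the number of reads assigned to an ID, a fold compares that number between the groups, and no order of level between genes is drawn. Nothing says that the 3 samples of a group were separate cultures, so a p-value here reflects sample-to-sample spread that could be purely technical. The targeted gene and markers of epithelial, fibroblast, endothelial and immune cells were not analysed here, as the IDs could not be matched to symbols. A part of other cell types in these results was not tested.

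The 10 genes did not move as a group. Col1a1 and Fn1 rose with GOLPH3 shRNA, Fn1 only near the threshold of the test, and Col1a2 fell. Zeb1 and Twist1 did not pass the test, and the other 5 genes had too few reads for the filter on low counts. Snai1 was among those 5, with more reads in each GOLPH3 shRNA library than in any control shRNA library. Over all 11400 tested IDs, 16.1% were called higher and 17.8% lower (quasi-likelihood F test of edgeR, adjusted p below 0.05 after Benjamini-Hochberg). Against that background, 2 of the 5 members tested were called higher and 1 was called lower. Col1a2 passed the filter only through its control libraries, so it could be tested only because it was high there.

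**Figure D1:**
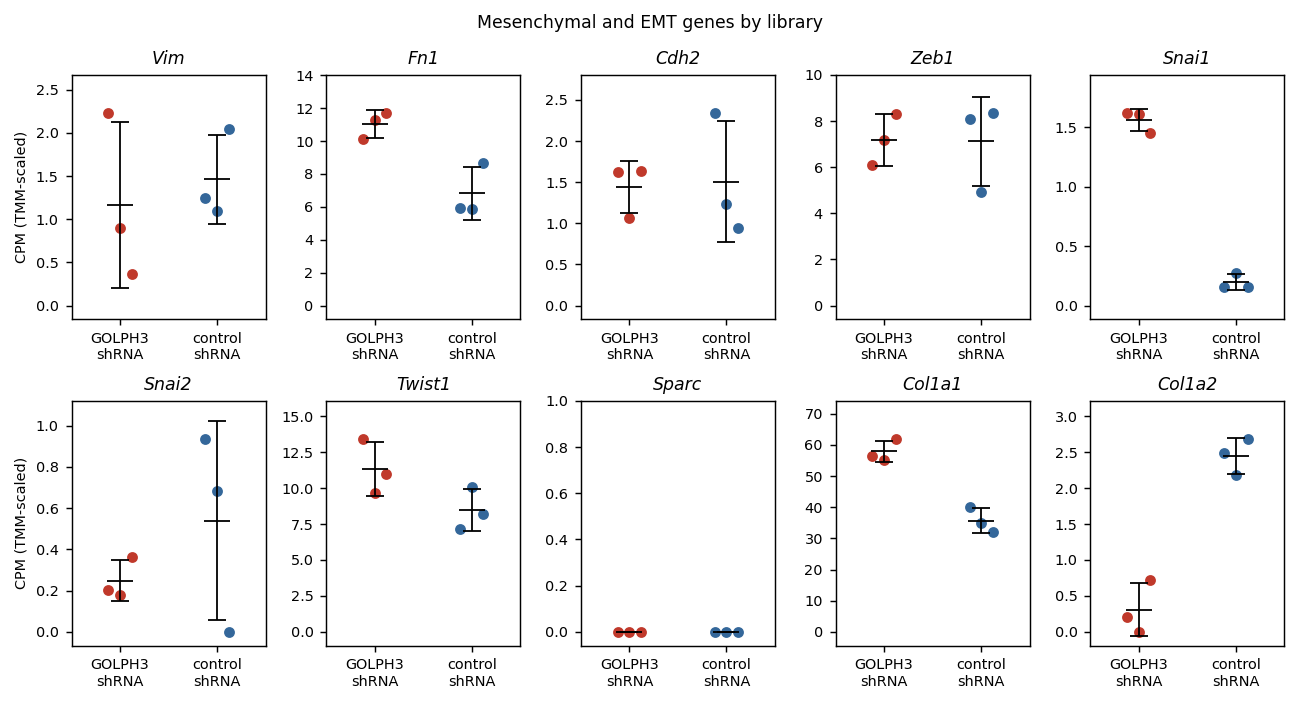
Each panel plots 1 gene's CPM (counts scaled to equal library size with trimmed mean factors) in the 3 GOLPH3 shRNA libraries and the 3 control shRNA libraries; points are libraries, the long tick is the mean and the bars are ± 1 SD, and the panels have different scales. The groups lie apart for Fn1, Snai1, Col1a1 and Col1a2, and Sparc is at 0 in all 6 libraries. Of all 18051 IDs with a count in any library, 16.2% lay wholly above the controls and 16.5% wholly below.

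Type I collagen is a triple helix, usually of a pair of alpha-1 chains and a single alpha-2 chain, encoded by Col1a1 and Col1a2. Col1a1 (ENSMUSG00000001506.10) had 279, 309 and 342 estimated counts in GOLPH3 shRNA replicates 1, 2 and 3, against 257, 256 and 204 in control shRNA replicates 1, 2 and 3. Scaled to library size this was 56.6, 55.3 and 61.8 CPM with GOLPH3 shRNA, and 40.0, 34.9 and 32.1 CPM with control shRNA. All GOLPH3 shRNA values lay above all control values. Col1a1 averaged 57.9 ± 3.44 CPM in GOLPH3 shRNA libraries and 35.7 ± 3.99 CPM in control shRNA libraries (SD, n = 3 each). It rose 1.62-fold, or by 0.70 on the log2 scale (SE 0.11; adjusted p = 0.00017, edgeR). In bulk RNA, a change in the number of cells that make a transcript and a change in its amount per cell cannot be told apart, here and below.

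Col1a2 (ENSMUSG00000029661.16) moved the other way. It had 1, 0 and 4 counts in GOLPH3 shRNA replicates 1, 2 and 3, against 16, 16 and 17 counts in control shRNA replicates 1, 2 and 3. Every GOLPH3 shRNA library was below every control library, and the library at 0 counts allows a level of up to 0.537 CPM (3 counts, counting error only). Col1a2 averaged 0.309 ± 0.373 CPM in GOLPH3 shRNA libraries and 2.45 ± 0.251 CPM in control shRNA libraries (SD, n = 3 each). The fitted log2 fold change was -2.89 (SE 0.71, edgeR adjusted p = 0.0048), and 3 of the 11400 tested IDs had a lower one. Col1a2 was among those IDs only because it was high in the control libraries. Neither this rank nor the adjusted p of a filtered fit is therefore separate evidence of a fall. In the fit of all 18051 IDs with a count in any library, its log2 fold change was -2.91 (SE 0.79, edgeR adjusted p = 0.0018). In that fit 12.3% of IDs were called lower. From the summed counts, 5 with GOLPH3 shRNA and 49 with control shRNA, the level was 7.83-fold lower with a 95% counting interval of 3.13 to 25.2. The counts are few. Without GOLPH3 shRNA replicates 1, 2 and 3 in turn, the filtered fit gave -2.70, -2.32 and -4.42 (edgeR adjusted p = 0.032, 0.023 and 0.0027). Without control shRNA replicates 1, 2 and 3 in turn, it gave -2.89, -2.97 and -2.83 (edgeR adjusted p = 0.02, 0.015 and 0.019).

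**Figure D2:**
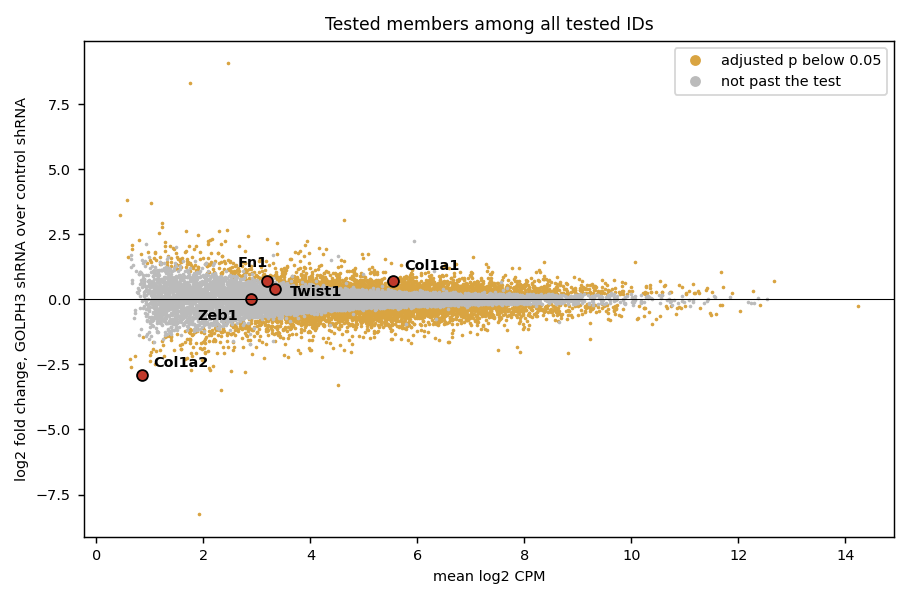
Log2 fold change (GOLPH3 shRNA over control shRNA) against mean log2 CPM for the 11400 tested IDs, with the 5 tested members labelled. Col1a2 lies at -2.89 at the low end of the mean log2 CPM axis. Fn1 and Col1a1 lie at 0.70, and Zeb1 and Twist1 lie among IDs that did not pass the test.

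The same counts can be given as a share within each library, which restates the opposite moves of the collagen chains without scaling between libraries and is not further evidence of them. Col1a2 made up 0.357% of the 280 counts of both chains in GOLPH3 shRNA replicate 1, 0% of 309 in replicate 2 and 1.16% of 346 in replicate 3. In control shRNA replicates 1, 2 and 3 it made up 5.86% of 273, 5.88% of 272 and 7.69% of 221 counts. The highest GOLPH3 shRNA share was thus below the lowest control share, and the 95% exact binomial intervals ran up to 2.93% in GOLPH3 shRNA libraries and started at 3.39% in control shRNA libraries. The mean share was 0.504% ± 0.592 with GOLPH3 shRNA and 6.48% ± 1.05 with control shRNA (SD, n = 3 each). The share compares read numbers of mouse gene models and is not the ratio of the chains in the cells.

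**Figure D3:**
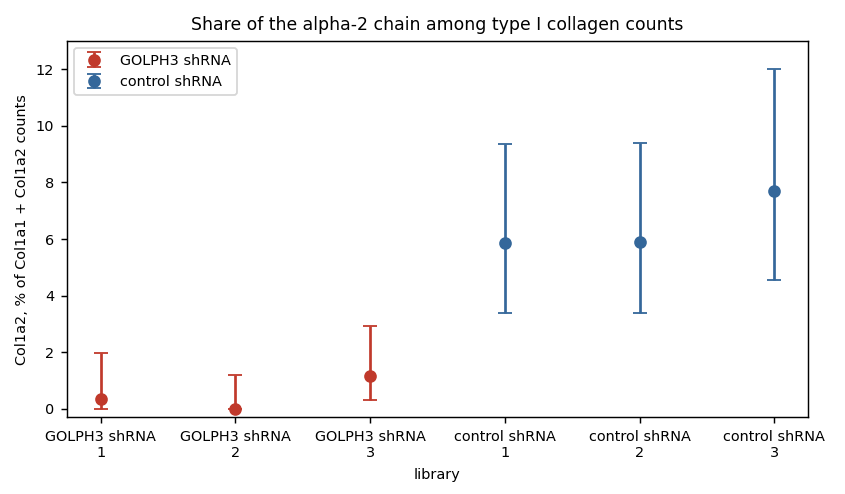
Col1a2 counts as a percentage of the Col1a1 and Col1a2 counts in each library, with 95% exact binomial intervals that cover counting error only. The GOLPH3 shRNA libraries lie between 0% and 1.16%, below the control shRNA libraries at 5.86% to 7.69%.

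Fn1 (ENSMUSG00000026193.15) encodes fibronectin, a matrix glycoprotein that integrins bind. It had 50, 63 and 65 counts in GOLPH3 shRNA replicates 1, 2 and 3, against 38, 43 and 55 counts in control shRNA replicates 1, 2 and 3. As CPM this was 10.1, 11.3 and 11.7 with GOLPH3 shRNA, and 5.92, 5.86 and 8.67 with control shRNA. The groups did not overlap in CPM, although control shRNA replicate 3 stood above the other controls. Fn1 averaged 11.1 ± 0.828 CPM in GOLPH3 shRNA libraries and 6.82 ± 1.60 CPM in control shRNA libraries (SD, n = 3 each). It rose 1.63-fold, or by 0.70 on the log2 scale (SE 0.24, 95% interval 0.19 to 1.22, edgeR adjusted p = 0.035). This call was near the threshold. Leaving out control shRNA replicate 3 gave an adjusted p of 0.019. Leaving out any other single library ended the call, with edgeR adjusted p from 0.056 (without GOLPH3 shRNA replicate 1) to 0.13 (without control shRNA replicate 2).

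The human promoter of FN1 is shown because FN1 was the one member called higher or lower whose promoter was in the RefSeq table used here. That table held promoters for 5 of the 10 genes under their human symbols, and COL1A1, COL1A2, SNAI1, SNAI2 and TWIST1 were not in it. The 250 bases before the annotated start are given 5′ to 3′ on the minus strand of GRCh38.p14, at chr2:215436069-215436318. Capitals mark the cAMP response element TGACGTCA, a palindrome to which ATF and CREB factors can bind, and the CCAAT box (searched as CCAAT and ATTGG), to which NF-Y can bind.
FN1: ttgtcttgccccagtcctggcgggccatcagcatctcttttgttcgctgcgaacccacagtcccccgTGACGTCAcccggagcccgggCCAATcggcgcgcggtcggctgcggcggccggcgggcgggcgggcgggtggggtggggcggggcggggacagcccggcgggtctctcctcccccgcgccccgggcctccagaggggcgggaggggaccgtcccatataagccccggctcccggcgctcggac
The element TGACGTCA begins 183 bases before the start and CCAAT begins 162 bases before it, without overlap. Among 35116 promoter windows of the same length, 1.65% held TGACGTCA, 32% held CCAAT on either strand and 0.652% held both. None of the windows for VIM, CDH2, ZEB1 or SPARC held TGACGTCA, and CCAAT was found in those of CDH2. These matches describe letters in the human sequence, and no binding was measured.

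Sparc (ENSMUSG00000018593.13), which encodes a collagen-binding matrix protein typical of fibroblasts, had 0 counts in all 6 libraries. A count of 0 allows up to 0.608 CPM in the smallest GOLPH3 shRNA library and 0.473 CPM in control shRNA replicate 3. No change in Sparc could be measured from these counts. Sparc was 1 of 16815 IDs in the table with no count in any library.

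Among the transcription factors, Snai1 had the highest ratio of counts between the groups. Snai1 (ENSMUSG00000042821.7) encodes Snail, a zinc finger repressor of E-cadherin. It had 8, 9 and 8 counts in GOLPH3 shRNA replicates 1, 2 and 3, against 1, 2 and 1 counts in control shRNA replicates 1, 2 and 3, although the GOLPH3 shRNA libraries were the smaller ones. That is 1.62, 1.61 and 1.45 CPM with GOLPH3 shRNA, and 0.156, 0.273 and 0.158 CPM with control shRNA. The groups lay well apart, and the 3 GOLPH3 shRNA values differed little from each other. From the summed counts, 25 with GOLPH3 shRNA and 4 with control shRNA, the level was 7.83-fold higher with a 95% counting interval of 2.70 to 30.9.

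Snai1 did not reach the filter on low counts, so it had no test in the fit of 11400 IDs. In a fit of all 18051 IDs with at least 1 count in any library, its log2 fold change was 2.84 (SE 0.99, edgeR adjusted p = 0.022). In that fit 10.6% of IDs were called higher and 12.3% lower. With a filter of at least 1 CPM in 3 libraries, which Snai1 passed only through its GOLPH3 shRNA libraries, it was also called (edgeR adjusted p = 0.0075). In the fit without GOLPH3 shRNA replicate 3 it passed edgeR's own filter and was called too (edgeR adjusted p = 0.018). There too it passed only through its GOLPH3 shRNA libraries, so neither filtered call is separate evidence of the rise. In the fit without a filter, leaving out 1 library ended the call for 5 of the 6 libraries. Without GOLPH3 shRNA replicates 1 and 2 in turn the edgeR adjusted p was 0.072 and 0.067, and without control shRNA replicates 1, 2 and 3 in turn it was 0.067, 0.050 and 0.065, the middle value lying just above the threshold. The call was also lost with the replicate number as a block (adjusted p = 0.053), and DESeq2 gave no adjusted p (unadjusted p = 0.0072). The log2 fold change lay between 2.61 and 3.13 in these 13 alternatives.

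Snai2 (ENSMUSG00000022676.7), which encodes the related repressor Slug, had about 1, 1 and 2 counts in GOLPH3 shRNA replicates 1, 2 and 3, against about 6, 5 and 0 in control shRNA replicates 1, 2 and 3. Its estimates had a fractional part in all 5 libraries in which it had reads. The control values lay on both sides of the GOLPH3 shRNA values. The ratio of the sums, 4 with GOLPH3 shRNA to 11 with control shRNA, was 0.455, and its 95% counting interval of 0.106 to 1.54 covers a change in either direction.

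Twist1 (ENSMUSG00000035799.6) encodes a basic helix-loop-helix factor of mesoderm and neural crest. It had 66, 54 and 61 counts in GOLPH3 shRNA replicates 1, 2 and 3, against 46, 74 and 52 counts in control shRNA replicates 1, 2 and 3. Control shRNA replicate 2, at 10.1 CPM, lay above GOLPH3 shRNA replicate 2 at 9.67 CPM, so the groups overlapped. Twist1 averaged 11.4 ± 1.88 CPM in GOLPH3 shRNA libraries and 8.48 ± 1.49 CPM in control shRNA libraries (SD, n = 3 each). The fitted difference of 0.41 on the log2 scale (SE 0.23, edgeR adjusted p = 0.18) did not pass the test, and its 95% interval ran from -0.08 to 0.90.

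Zeb1 (ENSMUSG00000024238.14) encodes a zinc finger and homeodomain repressor. It had 30.1, 40.2 and 46 estimated counts in GOLPH3 shRNA replicates 1, 2 and 3, against 52, 35.7 and 53 in control shRNA replicates 1, 2 and 3. The groups overlapped, with 6.08 to 8.31 CPM in GOLPH3 shRNA libraries and 4.91 to 8.35 CPM in control shRNA libraries. Zeb1 averaged 7.19 ± 1.12 CPM with GOLPH3 shRNA and 7.12 ± 1.92 CPM with control shRNA (SD, n = 3 each). The log2 fold change was 0.02 (SE 0.28, edgeR adjusted p = 0.96), with a 95% interval of -0.58 to 0.62, which leaves changes of that size in either direction possible.

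Vimentin, the intermediate filament of mesenchymal cells, and N-cadherin, their classical cadherin, had few reads. Vim (ENSMUSG00000026728.9) had 11, 5 and 2 counts in GOLPH3 shRNA replicates 1, 2 and 3, against 8, 8 and 13 counts in control shRNA replicates 1, 2 and 3. The groups overlapped, with 0.361 to 2.23 CPM in GOLPH3 shRNA libraries and 1.09 to 2.05 CPM in control shRNA libraries. The ratio of the Vim sums was 0.777 (95% counting interval 0.407 to 1.45). Cdh2 (ENSMUSG00000024304.14) had 8.18, 6.01 and 9 estimated counts in GOLPH3 shRNA replicates 1, 2 and 3, against 14.8, 9.02 and 6.02 in control shRNA replicates 1, 2 and 3, again with overlap. The ratio of the Cdh2 sums was 0.960 (95% counting interval 0.533 to 1.71). At these counts neither gene's direction could be given.

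**Figure D4:**
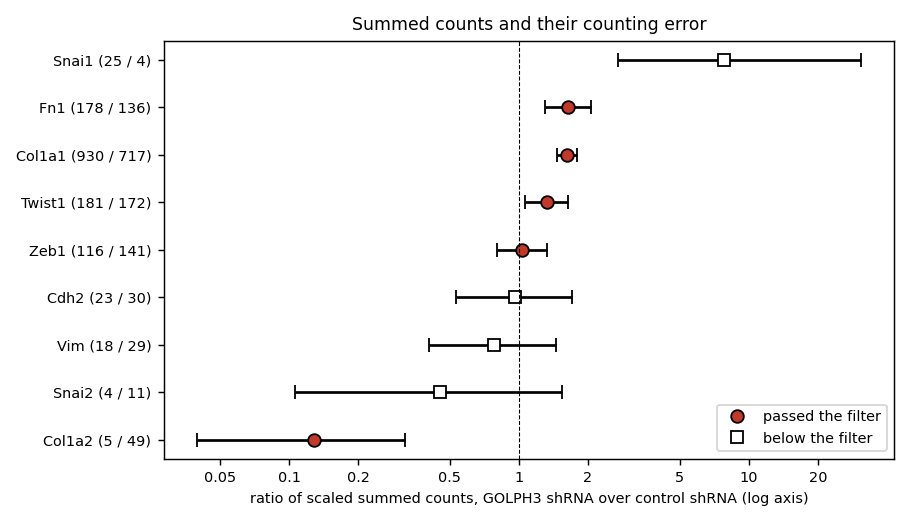
Ratio of summed, library-scaled counts, GOLPH3 shRNA over control shRNA, on a log axis for the 9 members with counts; bars are 95% exact intervals for counting error only, and the summed counts stand beside each symbol. The intervals of Snai1, Fn1, Col1a1 and Twist1 lie above 1 and that of Col1a2 lies below 1. They leave out the spread between libraries, and Twist1 did not pass the edgeR test.

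Of all members, 3 of the 9 members with counts had all GOLPH3 shRNA values above all control values and 1 had all below. Among all 18051 IDs with a count in any library, 16.2% lay wholly above and 16.5% wholly below. In the fit of those IDs, 5 members had a positive and 4 a negative log2 fold change, with a median of 0.01 against 0.016 over all IDs. Of the matrix genes, Fn1 and Col1a1 were called higher and Col1a2 lower. The call of Fn1 was near the threshold, and Col1a2 passed the filter only through its control libraries. Of the 4 transcription factors, Zeb1 and Twist1 did not pass the test and Snai1 and Snai2 were below the filter.

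**Figure D5:**
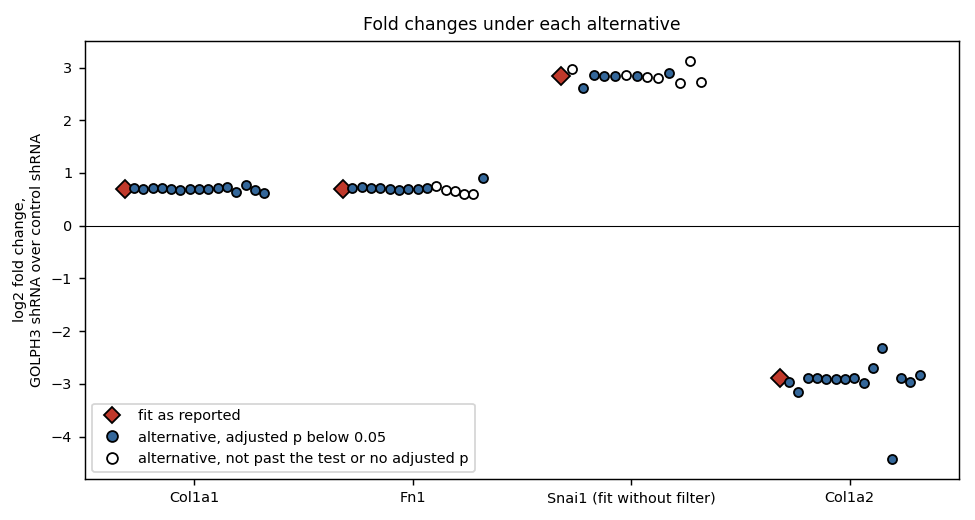
Log2 fold changes of Col1a1, Fn1, Snai1 and Col1a2 in the fit as reported (diamonds) and under each alternative (circles, filled where the adjusted p was below 0.05). Col1a1 and Col1a2 were called in all 15 alternatives run for each, Fn1 in 10 of 15 and Snai1, in fits without the filter or with the minimum of 1 CPM, in 6 of 13. The alternatives reuse the same libraries, and wherever a filter was used Col1a2 passed it only through its control libraries.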

How the data were processed

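RNA from 6 samples was made into libraries with a stranded messenger RNA kit, per the labels' protocols. The table that the authors deposited holds estimated counts by mouse gene ID, not scaled to library size. The submitters' processing notes name the build mm10, with no quantifier, annotation release or strand setting (not given in the sources used here). How reads shared between gene models were divided is therefore unknown, and such a division can change low counts by a large part. Estimates had a fractional part in 6 libraries for Cdh2, 5 for Snai2, and 4 each for Zeb1 and Col1a1. Those of Vim, Fn1, Snai1, Twist1 and Col1a2 were whole numbers in all libraries.

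Estimated counts were rounded to whole numbers. edgeR 4.0.16 (R 4.3.3) kept 11400 of 34866 IDs by filterByExpr (minimum count 10), holding 99.7% to 99.8% of each library's counts. Groups were compared on the whole table with trimmed mean factors and the quasi-likelihood F test, with a call at a Benjamini-Hochberg adjusted p below 0.05. SE came from dividing the log2 fold change by the root of F. CPM used library sizes times these factors. Counting intervals of ratios were exact and conditional on the sum; PCR reads are not independent molecules, so intervals and floors cover counting error only. The edgeR, DESeq2 and limma steps were first tested on simulated data. No 2 libraries agreed within sampling noise (chi-square per degree of freedom 3.36 to 6.61 within groups).

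Alternatives were DESeq2 1.42.0, limma-voom (limma 3.58.1), other scalings and filters, counts not rounded, the replicate number as a block and each library left out; repeats without a filter, for members below it, were added after seeing the data. All 10 members are named. The members and lists were chosen with earlier results of these data known. Lists by symbol (other EMT genes, cell type markers, the targeted gene) could not be matched to IDs and were not used here.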

Additional observations from a re-analysis of the deposited data

How the results depend on the processing

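Over all tested IDs, 1840 were called higher and 2030 lower, and across 15 alternatives 1425 to 1952 higher and 1644 to 2222 lower. The number of members called higher was 2. It was 3 without a filter or with a minimum of 1 CPM, which added Snai1, and 1 to 2 with single libraries left out. Fn1 was lost in 5 of those 6 fits. In 1 of them, without GOLPH3 shRNA replicate 3, Snai1 was called in its place (log2 fold change 2.90, edgeR adjusted p = 0.018). Snai1 passed the filter of that fit, and the minimum of 1 CPM, only through its GOLPH3 shRNA libraries. The number called lower was 1 in every alternative (Col1a2, which passed each filter only through its control libraries). With the replicate number as a block 2 members were called higher and 1 lower. The numbers were not taken as pairs, since deviations of same-numbered libraries correlated at 0.032, 0.090 and 0.044. Libraries with different numbers gave -0.086 to 0.037, so a weak pairing cannot be told from none. The block ended only the call of Snai1 in the fit without a filter. The log2 fold change of Col1a1 lay between 0.62 and 0.78 and that of Col1a2 between -4.42 and -2.32. Signs turned only for genes that passed no test. Zeb1, between -0.20 and 0.15 with single libraries left out, was at -0.10 without GOLPH3 shRNA replicate 3 and at -0.20 without control shRNA replicate 2. Without a filter, Vim was at 0.07 without GOLPH3 shRNA replicate 3, and Cdh2 was at 0.02 with limma-voom, 0.09 without GOLPH3 shRNA replicate 2 and 0.37 without control shRNA replicate 1. The cause was not tested. Under the scalings run, the median over all IDs stayed within 0.1 of 0. Low counts limit Vim, Cdh2, Snai1, Snai2 and Sparc, which had at most 15 counts in any library, and Col1a2, which had at most 17. Whether depth, low expression or the assignment to mouse gene models kept these counts low was not tested. Planned counts over wider lists were not run, since symbols could not be matched to IDs.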
